A study of Rattus norvegicus with 9 samples.

Results

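Immediate early genes are a small group whose transcription rises within minutes of a stimulus without new protein synthesis, and most of them encode transcription factors. The set described here holds 10 genes, Fos, Fosb, Jun, Junb, Jund, Egr1, Atf3, Ier2, Ier3 and Myc, found by gene name among 30315 loci of a table of transcript levels in the rat renal outer medulla. All 10 had a row and averaged 1 FPKM or more, and so were among the 14338 loci tested. FPKM are fragments scaled to transcript length and to the mapped fragments of a library, so levels of different genes are compared per length. Fosb is listed in 2 rows at a single position; the row with the higher mean, 3.04 FPKM, was used, and the other had a mean of 1.11 FPKM.

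The rats were of the strain MCW SS, a Dahl salt-sensitive line that becomes hypertensive on a high-salt diet, and each of 3 groups held 3 rats with 1 library per rat. HS_DT rats received GapmeRs, antisense oligonucleotides that direct cleavage of their target RNA, into the kidney against Dnmt3a and Tet3 at 2 mg/kg each, and ate a 4% NaCl diet for 7 days. HS_SCR rats received a scrambled GapmeR at 4 mg/kg with the same diet for 7 days. The 0.4% salt rats underwent the same surgery on a 0.4% NaCl diet and were sampled before GapmeR and 4% NaCl would have begun, so HS_SCR differs from them in diet, oligonucleotide and time together, and these cannot be told apart. Rat numbers in the labels run in a lower and a higher series, unevenly spread over the groups. All 0.4% salt rats are in the higher series, with HS_SCR replicate 3 and HS_DT replicate 3. Replicates 1 and 2 of HS_SCR and of HS_DT are in the lower series. The labels used here give no age.

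Fos and Fosb pair with Jun, Junb or Jund through leucine zippers to form AP-1, which binds TGANTCA elements. Atf3, a stress-responsive member of the ATF family, binds related elements and can pair with Jun proteins. Egr1 is a zinc finger factor induced by growth factors and injury through serum response factor. Myc, a helix-loop-helix factor that pairs with Max, drives ribosome production and cell growth. Ier2 encodes a short nuclear protein, and Ier3 is a small protein tied to survival and stress signalling that is not itself a DNA-binding factor. In the kidney, early genes of this kind are known to be induced by ischaemia, by tubular injury and by osmotic and hormonal stimuli.

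Promoter sequence was at hand for 5 of the 10 genes, from 250 bases before to 50 bases after the gene start, in RefSeq on build GRCr8 (Egr1, Fosb, Ier2, Junb and Jund). The 4 below are those of Jund, which rose in HS_SCR, and of Egr1, Ier2 and Junb. The Fosb window is not shown, although Fosb differed more between rats of a single group than Ier2 and Junb did. Capitals mark the motif named with each, on either strand, and start positions are relative to the gene start.
Egr1, plus strand of chr18:26736828-26737127, CArG boxes: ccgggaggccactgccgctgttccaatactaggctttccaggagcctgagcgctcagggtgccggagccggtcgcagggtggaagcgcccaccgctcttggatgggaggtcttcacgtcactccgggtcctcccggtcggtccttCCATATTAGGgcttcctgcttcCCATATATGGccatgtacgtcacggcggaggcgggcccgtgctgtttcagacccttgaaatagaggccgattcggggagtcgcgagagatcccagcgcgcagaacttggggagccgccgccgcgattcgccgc
Ier2, plus strand of chr19:40399123-40399422, TGACGTCA: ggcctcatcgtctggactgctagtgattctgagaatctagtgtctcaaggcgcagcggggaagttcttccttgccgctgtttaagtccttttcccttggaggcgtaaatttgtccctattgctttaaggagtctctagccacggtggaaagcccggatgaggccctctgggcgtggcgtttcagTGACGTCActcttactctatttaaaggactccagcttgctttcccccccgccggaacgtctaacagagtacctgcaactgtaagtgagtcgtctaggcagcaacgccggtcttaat
Junb, plus strand of chr19:40080876-40081175, TATAAA: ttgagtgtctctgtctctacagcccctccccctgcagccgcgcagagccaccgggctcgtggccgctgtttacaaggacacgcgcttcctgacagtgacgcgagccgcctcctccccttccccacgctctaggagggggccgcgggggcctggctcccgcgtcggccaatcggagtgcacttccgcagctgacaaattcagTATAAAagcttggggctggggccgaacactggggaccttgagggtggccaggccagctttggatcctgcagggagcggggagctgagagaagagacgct
Jund, minus strand of chr16:18769722-18770021, TGACGTCA and GGGCGG: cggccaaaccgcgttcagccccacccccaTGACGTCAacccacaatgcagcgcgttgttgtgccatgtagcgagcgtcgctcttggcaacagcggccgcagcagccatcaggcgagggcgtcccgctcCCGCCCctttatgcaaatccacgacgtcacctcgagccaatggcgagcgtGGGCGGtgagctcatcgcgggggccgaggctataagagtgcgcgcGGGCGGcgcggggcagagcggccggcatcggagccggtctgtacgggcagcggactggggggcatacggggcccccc

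The Egr1 window held 2 CArG boxes, the binding motif of serum response factor, at -105 and -83, a motif present in 1.64% of 33469 rat promoter windows of the same length. A full cyclic AMP response element, TGACGTCA, began at -66 in Ier2 and at -221 in Jund, and 1.83% of windows held it. Jund also had 3 GGGCGG boxes (33.1% of windows), and Junb had a TATAAA at -49 (14.2% of windows). Fosb had a TATAAA on the other strand at -180 and none of the other motifs. Neither TGANTCA, found in 7.33% of windows, nor CACGTG, the Myc and Max element found in 6.42%, was present in any of the 5 windows. No 2 of these motifs overlap in the windows shown, the positions are not on the build of the expression table, and a match describes letters in a window only.

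The depth of the libraries is unknown. Summed FPKM ran from 685349 to 933862 per library, and mitochondrially encoded transcripts made up 20.6% to 31.9% of it. HS_SCR replicate 3 stood apart on the second principal component, which took 22.1% of the variance, at -51.5 against -2.34 to 24.0 for the other libraries. All 10 thick ascending limb markers reached a mean of 1 FPKM, as did 12 of 15 proximal tubule markers. Dnmt3a averaged 9.999 ± 1.17 FPKM in the libraries labelled HS_DT, 7.70 ± 2.33 in those labelled HS_SCR and 12.8 ± 0.624 in 0.4% salt (SD, n = 3 each). Tet3 averaged 8.03 ± 0.465 FPKM in HS_DT, 6.24 ± 1.71 in HS_SCR and 9.16 ± 0.612 in 0.4% salt (SD, n = 3 each). Both targets had their lowest mean under the label HS_SCR and not HS_DT, so directions between those groups are directions between labels.

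Per unit of transcript length, Ier3 and Jund had the highest group means of the 10 genes in every group and Fosb the lowest. In the libraries labelled HS_DT the order was Ier3, Jund, Jun, Junb, Egr1, Fos, Ier2, Atf3, Myc and Fosb, from 83.1 to 5.43 FPKM, and only the last step, Myc over Fosb, separated the ranges of neighbours. In HS_SCR the means ran from 144 FPKM for Ier3 through Jund, Junb, Jun, Ier2, Egr1, Myc, Fos and Atf3 to 2.40 FPKM for Fosb. There the ranges parted between Ier3 and Jund, Jun and Ier2, and Atf3 and Fosb. In 0.4% salt the order was Ier3, Jund, Junb, Jun, Egr1, Ier2, Fos, Myc, Atf3 and Fosb, from 71.1 to 1.29 FPKM, and only the steps from Jun to Egr1, from Egr1 to Ier2 and from Ier2 to Fos had overlapping ranges.

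**Figure D1:**
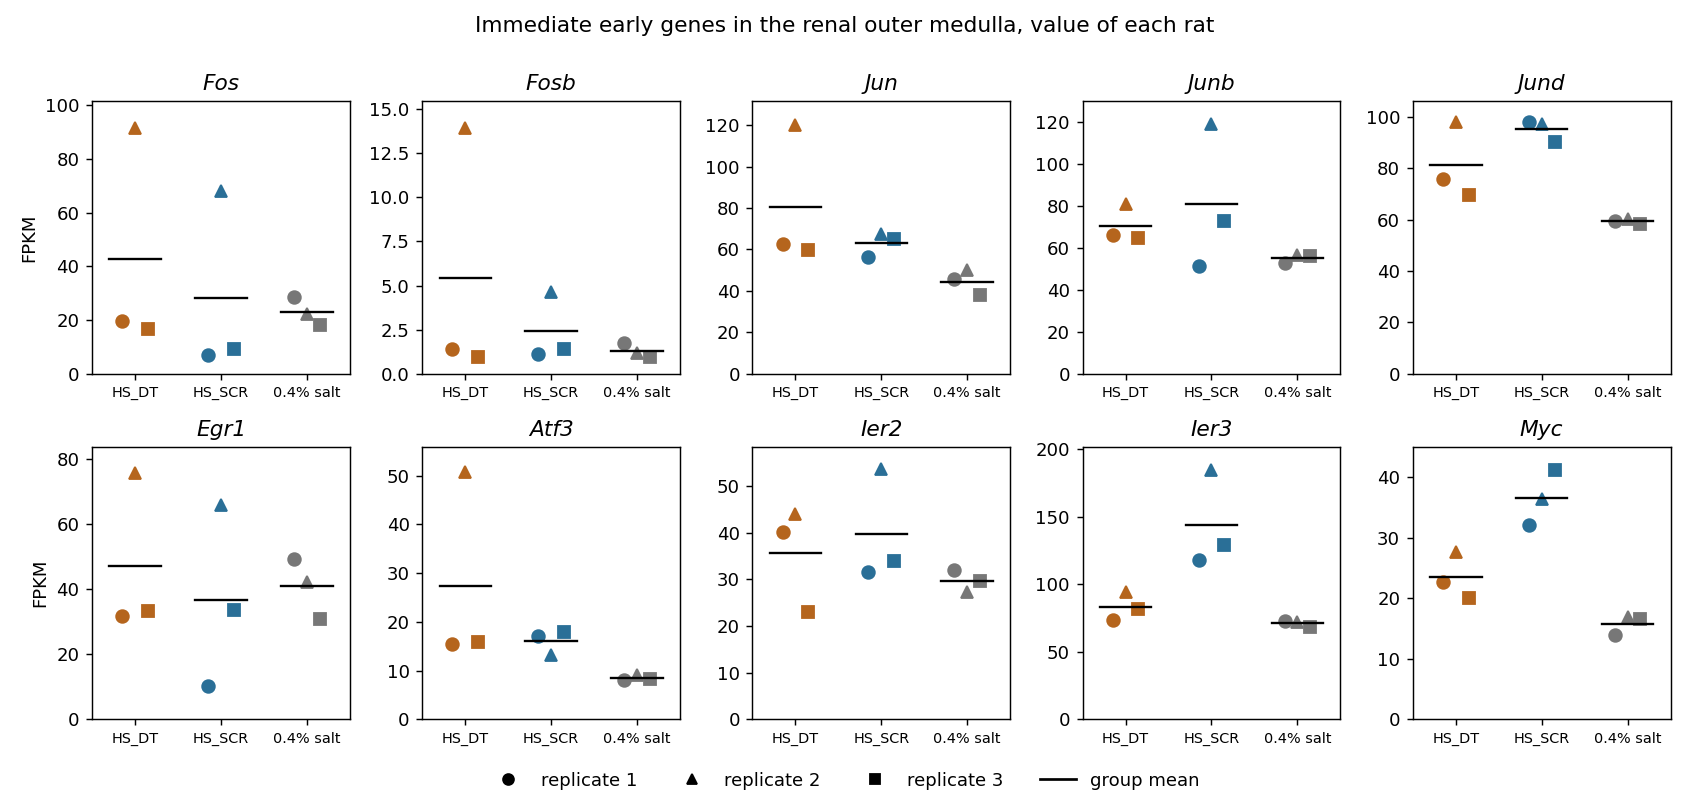
Level of each of the 10 immediate early genes in FPKM (vertical axes, each from 0), with HS_DT left of HS_SCR and HS_SCR left of 0.4% salt. Points are single rats, marker shapes give the replicate number and bars give group means (n = 3). Myc and Ier3 are highest in HS_SCR without overlap. For Fos, Fosb and Egr1 the triangles of HS_DT and HS_SCR stand far above the other rats of their own group.

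Myc, Ier3 and Jund rose in HS_SCR over 0.4% salt. These 3 of the 10 genes were called and none fell, where 8.2% of tested loci rose and 4.88% fell (1175 and 699 loci, limma, adjusted p under 0.05 by Benjamini-Hochberg over 14338 loci). The 10 genes had a median log2 change of 0.48 against 0.02 for all tested loci, and 8 of them were above 0 against 52.2% of loci. In whole-tissue RNA, fewer cells of a type and less RNA per cell cannot be told apart, and this holds for every level given here.

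Myc (chr7:103157451-103162381 on build rn5) was at 32.1, 36.4 and 41.2 FPKM in HS_SCR, against 13.9, 16.9 and 16.6 FPKM in 0.4% salt. Each HS_SCR rat was above each 0.4% salt rat. On the log2(FPKM + 1) scale of all changes given here, Myc rose by 1.16 ± 0.14 (SE), with an adjusted p of 0.0057. It was the largest change of the set and 2.31 times in group means. Within the higher series of rat numbers, HS_SCR replicate 3 was at 41.2 FPKM, against the same 13.9 to 16.9 FPKM of the 0.4% salt rats.

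Ier3 (chr20:5535616-5672765, an interval that the table also gives to Ddr1 and that is far wider than the gene) was at 118, 185 and 129 FPKM in HS_SCR, against 72.4, 72.3 and 68.5 FPKM in 0.4% salt. The 0.4% salt rats lay close together, and all 3 HS_SCR rats were above them, with replicate 2 highest. Ier3 rose by 0.98 ± 0.16 (adjusted p 0.0105), or 2.02 times in group means.

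Jund (chr16:20341543-20344677, an interval that 2 entries of the table share) is the AP-1 subunit known for steady expression in resting cells. Jund was at 98.2, 97.2 and 90.1 FPKM in HS_SCR, against 59.6, 60.2 and 58.5 FPKM in 0.4% salt. Both groups were tight and did not overlap. Its rise of 0.67 ± 0.12 (adjusted p 0.0133), or 1.60 times, was smaller than those of Myc and Ier3. Without 0.4% salt replicate 1 the change was the same 0.67 but the adjusted p was 0.0542, and without 0.4% salt replicate 2 they were 0.68 and 0.0568, in fits that called 448 and 347 loci, against 1874 with all libraries. Without HS_SCR replicate 3, the library that stood apart, all 3 genes were called, with changes of 1.07 for Myc, 1.04 for Ier3 and 0.71 for Jund (adjusted p 0.0026, 0.0053 and 0.0068). That fit called 5188 loci, or 36.2% of those tested.

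Atf3 and Jun were also higher in every HS_SCR rat than in every 0.4% salt rat but did not pass. With them 5 of the 10 genes had ranges above 0.4% salt, against 19.1% of tested loci. Atf3 (chr13:114411694-114443438) was at 17.04, 13.2 and 17.9 FPKM in HS_SCR, against 8.18, 9.08 and 8.23 FPKM in 0.4% salt, a change of 0.83 ± 0.39 (adjusted p 0.176). The common spread of Atf3 included 1 very high HS_DT rat: without HS_DT replicate 2 the adjusted p was 0.0200, and in a fit of HS_SCR and 0.4% salt alone it was 0.0436. Jun (chr5:117957724-117961082) was at 56.4, 67.3 and 65.2 FPKM in HS_SCR, against 45.6, 49.96 and 38.0 FPKM in 0.4% salt, a change of 0.50 ± 0.25 (adjusted p 0.201).

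The remaining 5 genes overlapped between HS_SCR and 0.4% salt. Junb and Ier2 had changes of 0.47 ± 0.26 (adjusted p 0.243) and 0.37 ± 0.26 (adjusted p 0.353). Fosb had a change of 0.44 ± 0.72 (adjusted p 0.702). Egr1 and Fos had changes of -0.47 ± 0.60 (adjusted p 0.619) and -0.40 ± 0.86 (adjusted p 0.779), and their group means in FPKM showed how uneven the rats were: the Fos mean was higher in HS_SCR, at 28.2 ± 34.7 against 23.0 ± 5.36 FPKM, while its mean on the log scale was lower. The 95% interval for Fos, from -2.36 to 1.56, holds large changes in both directions. Single rats set these signs: without HS_SCR replicate 1 the change was 0.18 for Fos and 0.23 for Egr1, and without HS_SCR replicate 3 it was 0.00 for Fos.

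**Figure D2:**
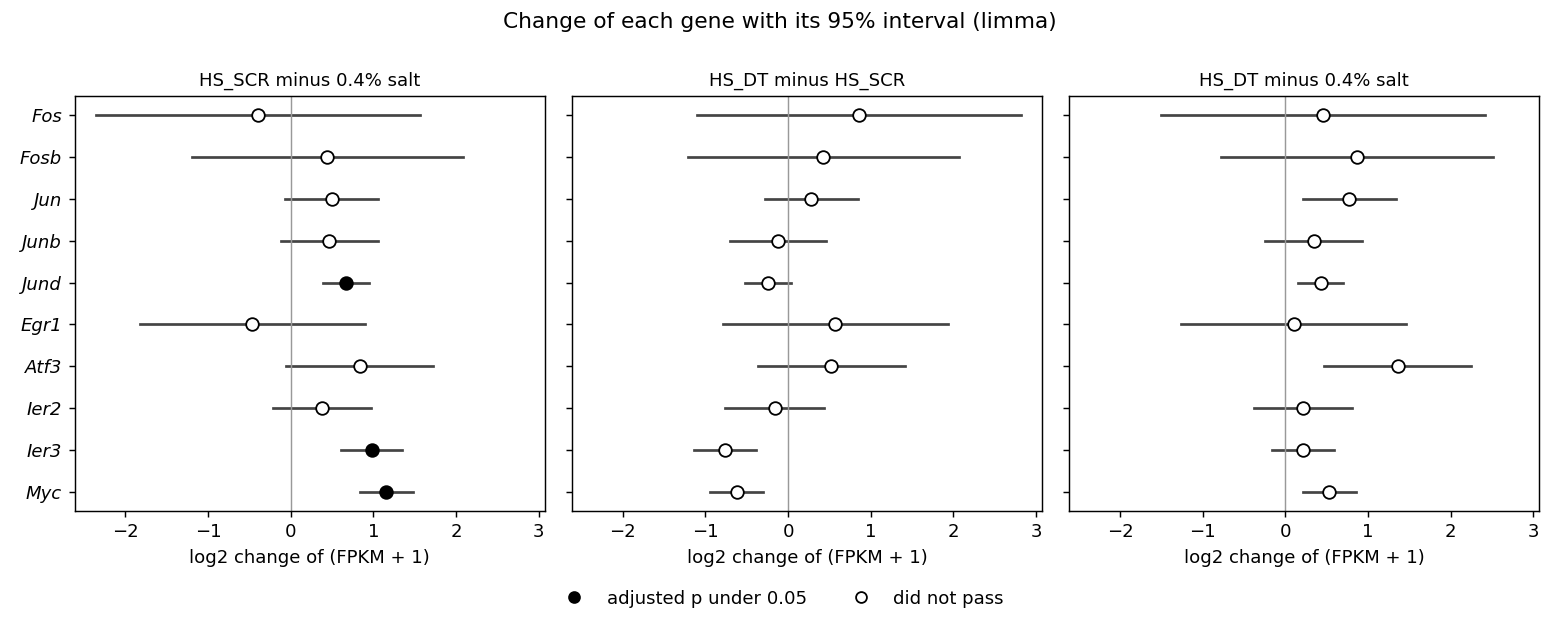
Log2 change of (FPKM + 1) of each gene (horizontal axes) in 3 panels (HS_SCR against 0.4% salt, HS_DT against HS_SCR, HS_DT against 0.4% salt). Lines are 95% intervals from limma. Filled points passed an adjusted p of 0.05 and are Myc, Ier3 and Jund in the first comparison; the intervals of Fos, Fosb and Egr1 cross 0 in all 3.

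A moderated F test over the 3 groups called the same 3 genes, with adjusted p of 0.0176 for Myc, 0.0258 for Ier3 and 0.0360 for Jund, where 5.61% of tested loci were called. Atf3 and Jun had adjusted p of 0.131 and 0.165 in that test, and the other 5 genes were at 0.442 or above. None of the 10 genes was called in it without 0.4% salt replicate 1, 0.4% salt replicate 2, HS_SCR replicate 2 or HS_DT replicate 2, where the whole table had 0, 0, 11 and 3 calls, against 804 with all libraries. Of the 10 genes, 1 was called without 0.4% salt replicate 3 (195 loci in all) and 1 without HS_DT replicate 1 (230 loci in all). Jund had an F test adjusted p of 0.0827 under equal FPKM sums without mitochondrial transcripts, 0.0793 with a term for the rat number series, 0.0738 under quantile normalization and 0.0512 with no filter on low values.

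Marker sums of macrophages, neutrophils, erythroid cells and proximal tubule did not overlap between HS_SCR and 0.4% salt. Those of thick ascending limb, principal, intercalated, endothelial, pericyte and smooth muscle, and lymphocyte markers did. The summed FPKM of macrophage markers (9 of 10 measured) was 1075 to 1231 in HS_SCR and 457 to 582 in 0.4% salt. Single macrophage markers did not all follow the sum. Aif1 was at 55.0 FPKM in HS_SCR replicate 3, against 64.6 to 78.9 FPKM in 0.4% salt. Cd163 was at 0.160, 0.989 and 64.9 FPKM in HS_SCR, against 0.153 to 0.422 FPKM in 0.4% salt. Neutrophil markers summed to 77.1, 444 and 91.0 FPKM in HS_SCR and to 6.73 to 8.80 FPKM in 0.4% salt. Only 3 of the 8 neutrophil markers averaged 1 FPKM or more, and S100a8 and S100a9 made up most of the sum in HS_SCR. S100a8 was at 23.9 to 207 FPKM in HS_SCR and 1.87 to 3.47 FPKM in 0.4% salt, and the granule gene Mpo stayed at or under 0.57 FPKM in every library. Erythroid markers, mostly the haemoglobin genes, summed to 10744, 7053 and 1945 FPKM in HS_SCR and to 769 to 1132 FPKM in 0.4% salt. Proximal tubule markers summed to 116, 674 and 295 FPKM in HS_SCR and to 1085 to 2875 FPKM in 0.4% salt. The part of these cell types in the rise of Myc, Ier3 and Jund was not tested. With the proximal tubule score of each library as a covariate, none of the 10 genes passed, nor did any of the 14338 loci, and the changes were 1.11 for Myc, 1.26 for Ier3 and 0.52 for Jund (adjusted p 0.138, 0.127 and 0.282). The score was 2.41 to 4.60 in HS_SCR and 5.60 to 7.19 in 0.4% salt. Without overlap, that fit can hardly tell the score and these groups apart.

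**Figure D3:**
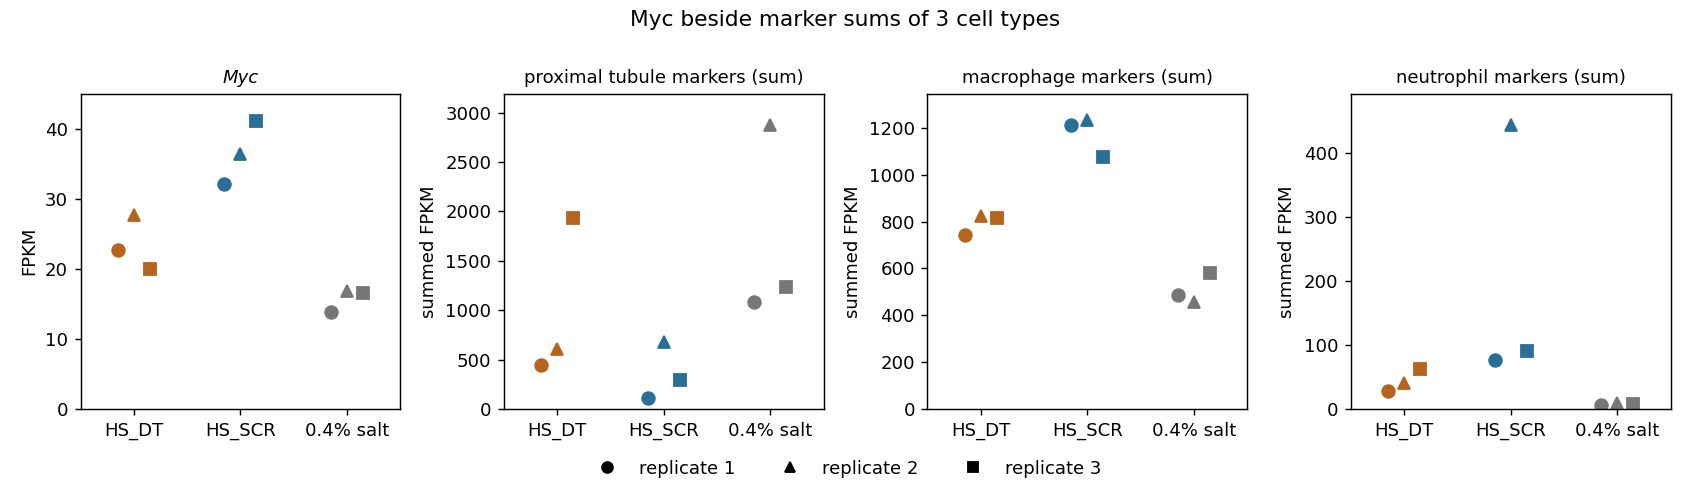
Myc in FPKM, and the summed FPKM of the markers of proximal tubule, macrophages and neutrophils, in each library (vertical axes from 0), with HS_DT left of HS_SCR and HS_SCR left of 0.4% salt and marker shapes for the replicate number. Macrophage and neutrophil sums are highest in HS_SCR, as Myc is, and the proximal tubule sum is lowest there on the whole, with overlap between HS_DT and both other groups.

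Levels also depend on what each library is scaled to. Scaling to an equal FPKM sum without mitochondrial transcripts put the median change of all tested loci in HS_SCR minus 0.4% salt at -0.21, against 0.02 with FPKM as deposited, and gave 392 loci called higher and 2912 lower, against 1175 and 699 with FPKM as deposited. Under it Myc (0.90), Ier3 (0.72) and Jund (0.41) were still called higher, with adjusted p of 0.0112, 0.0164 and 0.0412.

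In the libraries labelled HS_DT, Myc and Ier3 were lower than in those labelled HS_SCR in every rat but did not pass the test. None of the 10 genes was called in HS_DT minus HS_SCR, where a single locus of 14338 (0.00697%) fell and none rose, and 2732 loci were under an unadjusted p of 0.05. That locus was Cldn7, a tight junction claudin of distal nephron and collecting duct, with a change of -0.84 ± 0.07 (adjusted p 0.0307). Of the 10 genes, 2 (Myc and Ier3) were under an unadjusted p of 0.05, a share near the 19.1% of all tested loci.

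Ier3 was at 73.8, 94.0 and 81.4 FPKM in HS_DT, against 118, 185 and 129 FPKM in HS_SCR. Its change was -0.76 ± 0.16 (adjusted p 0.0741), with a 95% interval from -1.14 to -0.39. Myc was at 22.7, 27.7 and 20.0 FPKM in HS_DT, against 32.1, 36.4 and 41.2 FPKM in HS_SCR. Its change was -0.62 ± 0.14 (adjusted p 0.0810), with a 95% interval from -0.94 to -0.30. The ranges of these 2 genes lay below those of HS_SCR, as did 12.5% of tested loci, and none of the 10 genes had a range above, as 9.1% of loci did. Without HS_SCR replicate 3 both were called, with adjusted p of 0.0250 for Ier3 (-0.83) and 0.0445 for Myc (-0.54), while loci called over the whole table went to 2300. Macrophage markers summed to 744 to 822 FPKM in HS_DT, below the 1075 to 1231 FPKM of HS_SCR. Neutrophil markers summed to 28.3 to 62.6 FPKM in HS_DT, below the 77.1 to 444 FPKM of HS_SCR. Single markers did not all follow: C1qa, C1qb, C1qc, Mrc1 and Cd14 lay below HS_SCR without overlap, while Cd68, Cd163, Csf1r and Aif1 overlapped. S100a8 and S100a9 lay below HS_SCR, and the other neutrophil markers overlapped. The part of these cells in the values of Myc and Ier3 was not tested.

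Jund, the third gene that rose in HS_SCR, was at 75.8, 98.1 and 69.5 FPKM in HS_DT, against 98.2, 97.2 and 90.1 FPKM in HS_SCR. One HS_DT rat, replicate 2, was within the HS_SCR range and the others were below it, and the change was -0.24 ± 0.12 (adjusted p 0.315). The other 7 genes had changes from -0.16 for Ier2 to 0.85 for Fos, with adjusted p from 0.493 to 0.829. Their intervals leave a wide range: Fos from -1.11 to 2.81, Egr1 from -0.79 to 1.93 and Fosb from -1.21 to 2.07. Signs of several rested on single rats: without HS_DT replicate 2 the change was -0.50 for Fosb, -0.041 for Jun and -0.018 for Atf3. Without HS_SCR replicate 2 it was 0.20 for Junb and 0.069 for Ier2, without HS_DT replicate 3 it was 0.12 for Ier2, and without HS_SCR replicate 1 it was -0.12 for Egr1. The members' median change was 0.08 against 0.00 for all tested loci, and 5 of the 10 were above 0, against 49.6% of loci.

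Set against 0.4% salt, all 10 genes had a log2 change above 0 in HS_DT, against 51.4% of tested loci, and none was called. No locus was called in this comparison, while 1074 (7.49%) were under an unadjusted p of 0.05, among them Atf3, Jun, Jund and Myc. Without HS_DT replicate 2 the change was -0.30 for Fos, -0.059 for Fosb and -0.29 for Egr1, and without 0.4% salt replicate 3 it was -0.079 for Egr1. In HS_DT, 6 of the 10 genes (Atf3, Jun, Junb, Jund, Ier3 and Myc) had ranges above 0.4% salt, as did 14.2% of loci. Atf3 was at 15.5, 50.7 and 15.9 FPKM in HS_DT, against 8.18, 9.08 and 8.23 FPKM in 0.4% salt, a change of 1.36 ± 0.39 (adjusted p 0.448). Jun was at 62.4, 120.1 and 59.6 FPKM in HS_DT, against 45.6, 49.96 and 38.0 FPKM in 0.4% salt, a change of 0.78 ± 0.25 (adjusted p 0.480). Replicate 2 was 3.23 times the mean of the other HS_DT rats for Atf3 and 1.97 times for Jun, and the lowest HS_DT rat was also above the highest 0.4% salt rat. Myc had a change of 0.53 ± 0.14 (adjusted p 0.419) and Jund of 0.43 ± 0.12 (adjusted p 0.444). Junb and Ier3 had changes of 0.34 ± 0.26 and 0.22 ± 0.16, with adjusted p of 0.804 and 0.809. HS_DT minus HS_SCR and HS_SCR minus 0.4% salt share the HS_SCR rats, so their opposite signs for Myc and Ier3 are not independent of each other.

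Fos, Fosb and Egr1 differed widely between rats of a single group. Fos (chr6:116249139-116252608) was at 19.8, 91.6 and 16.7 FPKM in HS_DT, at 7.12, 68.2 and 9.29 FPKM in HS_SCR and at 28.7, 22.2 and 18.1 FPKM in 0.4% salt. A single rat of each high-salt group, replicate 2, was far above the rest, at 5.01 times the mean of the other HS_DT rats and 8.31 times that of the other HS_SCR rats. The remaining HS_SCR rats were below every 0.4% salt rat.

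Fosb (chr1:81480948-81488164) followed the same rats at a low level, at 1.40, 13.9 and 0.970 FPKM in HS_DT, 1.11, 4.65 and 1.43 FPKM in HS_SCR and 1.76, 1.17 and 0.941 FPKM in 0.4% salt. HS_DT replicate 2 was 11.8 times the mean of the other HS_DT rats. The second Fosb row at this position did not share that pattern: it was at 1.67, 0.780 and 0.853 FPKM in HS_DT, 0.816, 0.542 and 1.32 FPKM in HS_SCR and 1.65, 0.893 and 1.47 FPKM in 0.4% salt, with replicate 2 lowest in both high-salt groups. The row used has the higher mean, to which its replicate 2 values add.

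Egr1 (chr18:27369165-27372951) was at 31.8, 75.9 and 33.4 FPKM in HS_DT, 10.4, 66.0 and 33.7 FPKM in HS_SCR and 49.4, 42.4 and 31.0 FPKM in 0.4% salt. Replicate 2 was again highest in both high-salt groups, and HS_SCR replicate 1 was the lowest of all 9 rats. Junb (chr19:37068450-37071730) was at 66.4, 81.0 and 64.8 FPKM in HS_DT, 51.4, 119 and 73.1 FPKM in HS_SCR and 52.7, 56.8 and 56.2 FPKM in 0.4% salt. Here HS_SCR replicate 2 stood out more than HS_DT replicate 2. Ier2 (chr19:36750451-36752149) was at 40.1, 43.9 and 23.0 FPKM in HS_DT, 31.6, 53.6 and 33.9 FPKM in HS_SCR and 31.9, 27.4 and 29.6 FPKM in 0.4% salt, with HS_DT replicate 3 the lowest rat.

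All 10 genes had their highest HS_DT value in replicate 2, against 25.2% of tested loci. In HS_SCR, 7 of 10 were highest in replicate 2, against 25.3% of loci, with Jund highest in replicate 1 and Myc and Atf3 in replicate 3. Both held for 7 of the 10 genes and for 6.19% of loci. Fosb enters these counts through the row used, chosen by its mean, which its replicate 2 values raise. The other Fosb row had replicate 2 lowest in both groups. The rats of 0.4% salt split 5 and 5 between replicates 1 and 2. Rats that share a number are not said to be related. The FPKM sum, which does not measure depth, was 726438 in HS_DT replicate 2, between those of the other HS_DT rats. In HS_SCR replicate 2 the sum was 933862, the highest of all 9. The part of library depth was not tested. Neutrophil markers summed to 40.5 FPKM in HS_DT replicate 2, between the others of its group, and to 444 FPKM in HS_SCR replicate 2, the highest of all; the part of these cells was not tested.

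**Figure D4:**
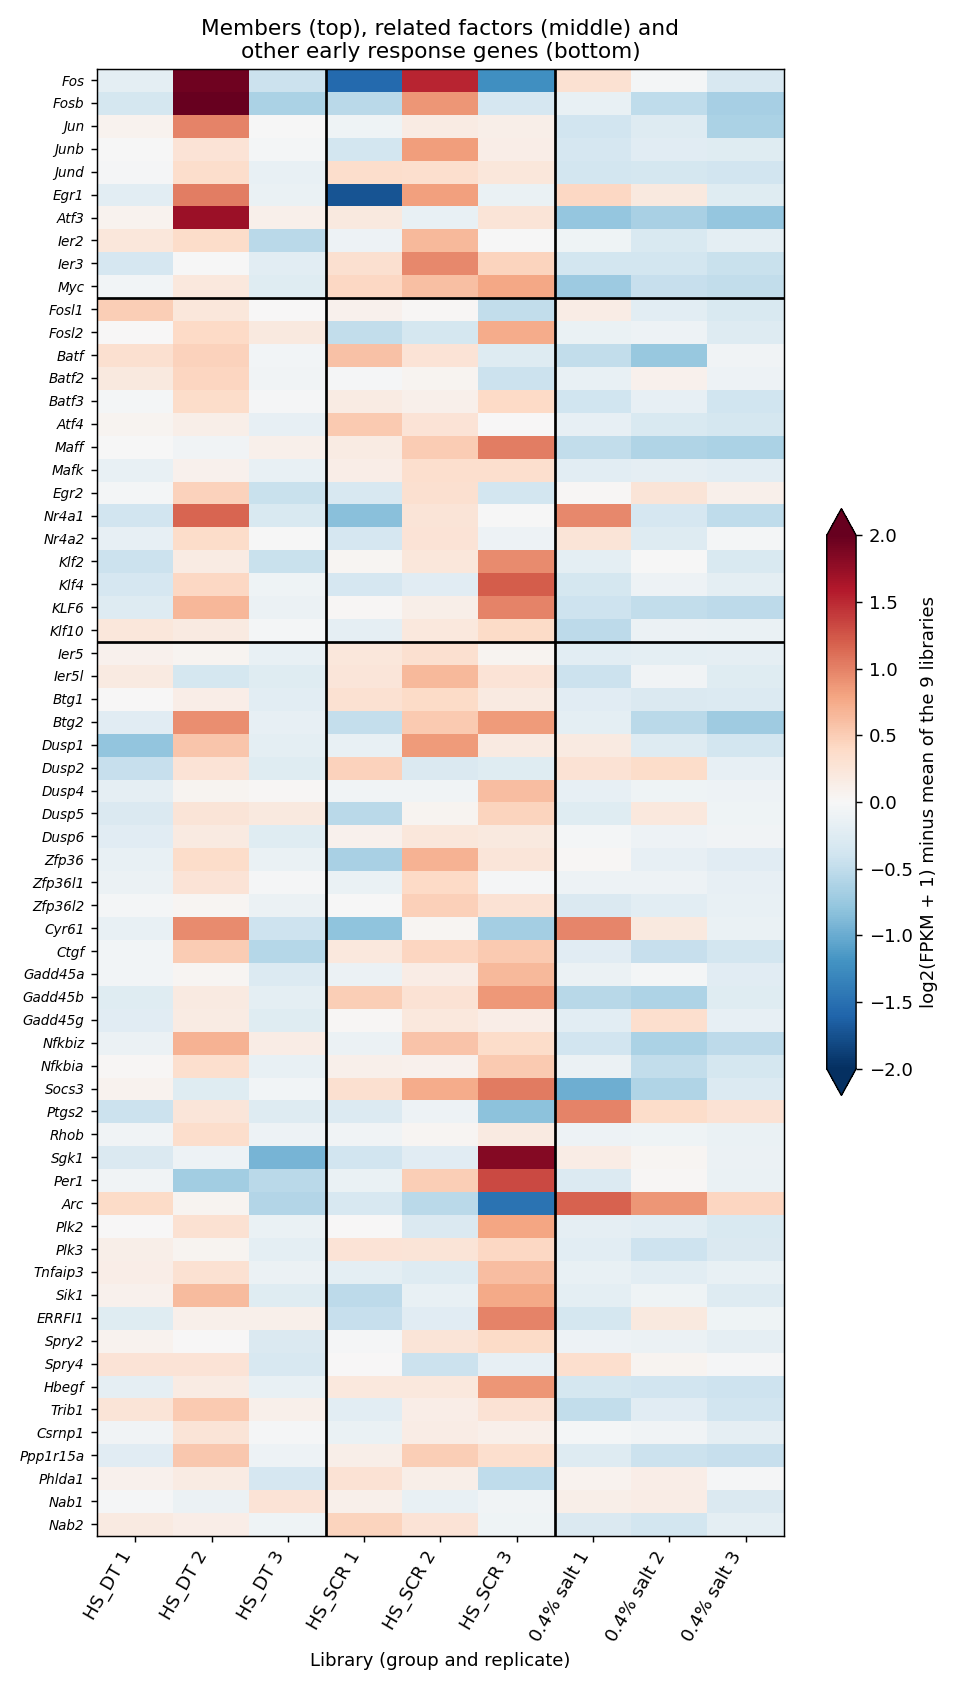
Colour gives log2(FPKM + 1) minus the mean of the 9 libraries for each gene (rows) and library (columns, HS_DT left of HS_SCR and HS_SCR left of 0.4% salt). The 10 genes are at the top, other AP-1, ATF, Maf, EGR, NR4A and KLF factors in the middle and other early response genes at the bottom; the column of HS_DT replicate 2 is darkest for Fos, Fosb and Atf3, and HS_SCR replicate 3 is raised for several genes outside the 10.

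The pooled within-group SD of log2(FPKM + 1) was 1.25 for Fos, 1.04 for Fosb and 0.87 for Egr1, against a median of 0.18 over all tested loci. These were larger than the SD of 99.4%, 99.0% and 98.2% of loci. Atf3 followed at 0.56 (95.2% of loci had less), and Ier2, Junb and Jun lay between 0.35 and 0.37. Ier3 (0.22), Myc (0.19) and Jund (0.15) were near the middle of all loci, and these are the 3 genes that were called. Over the 9 libraries, Fosb spanned 14.8 times from lowest to highest, Fos 12.9 times and Egr1 7.30 times, while Jund spanned 1.68 times.

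The genes most like each member over the 9 libraries, by the mean absolute difference of centred log2(FPKM + 1) among 12089 loci with a single symbol, were partly other early genes. Nearest to Fos was Cyr61, a matricellular early gene, at 0.55, a loose match since Fos itself deviates by 0.84 on average. Cyr61 was at 83.7, 180 and 69.3 FPKM in HS_DT, 52.6, 95.6 and 57.7 FPKM in HS_SCR and 184, 106 and 84.5 FPKM in 0.4% salt, so it shares the peaks in replicate 2 but is as high in 0.4% salt replicate 1. B230307C23Rik was the second (0.58). Fosb was closest to Btg2, an antiproliferative early gene (0.41), and Rgs1, a regulator of G protein signalling (0.43), and Egr1 to Zfp36, which encodes the mRNA-destabilising tristetraprolin (0.34), and Triap1 (0.37).

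Closer matches were found for the steadier genes. Jund was most like the homeobox gene Hlx (0.05) and Ifrd1 (0.07), Ier3 most like Tspan8 (0.10) and Spp1, which encodes osteopontin (0.10), and Myc most like the prostaglandin receptor gene Ptger2 (0.12) and the deubiquitinase gene Uchl1 (0.13). Jun was nearest to Rap2b and the pseudokinase gene Trib1 (both 0.17), Junb to Pdk4 (0.11) and Mybpc2 (0.12), Ier2 to Dnajc24 and Polr2i (both 0.14), and Atf3 to Naaa (0.29) and Lst1 (0.30). Spp1 was at 5960, 7120 and 6578 FPKM in HS_DT, 7904, 13596 and 10336 FPKM in HS_SCR and 4798, 5249 and 5965 FPKM in 0.4% salt. As for Ier3, HS_SCR replicate 2 was its highest rat.

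Among 15 tested factors of the same families (of 20 listed: other AP-1, ATF, Maf, EGR, NR4A and KLF genes), 4 rose and none fell in HS_SCR over 0.4% salt. The median change was 0.43. Over all tested loci 8.2% rose, 4.88% fell and the median was 0.02. This list and those below were chosen with earlier results of these data known, so their counts and medians only describe the lists. Maff, a small Maf protein that pairs with AP-1-like factors, rose by 1.14 ± 0.19 (adjusted p 0.011), at 9.93, 12.97 and 18.8 FPKM in HS_SCR, against 5.99, 5.41 and 5.34 FPKM in 0.4% salt. Atf4, the translation-controlled stress factor, rose by 0.54 ± 0.14, Batf3, an AP-1 partner of immune cells, by 0.54 ± 0.14, and Mafk by 0.47 ± 0.10. Of these 15 factors, 12 had their highest HS_DT value in replicate 2, against 25.2% of loci. In HS_SCR, 8 were highest in replicate 3 and 4 in replicate 2, against 40.0% and 25.3% of loci.

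Of 39 tested other early response and feedback genes (of 40 listed), 9 rose and 1 fell in HS_SCR over 0.4% salt. Of all tested loci 8.2% rose and 4.88% fell. The median change of the list was 0.35. Socs3, the feedback inhibitor of JAK and STAT signalling, rose by 1.32 ± 0.22, at 25.7, 35.1 and 43.0 FPKM in HS_SCR, against 9.89, 13.1 and 16.7 FPKM in 0.4% salt. Gadd45b, a stress gene, rose by 1.02 ± 0.18, and Hbegf, an EGF receptor ligand, by 0.81 ± 0.19. Arc, a cytoskeletal early gene best known from neurons, fell by 1.61 (SE 0.35, adjusted p 0.025), at 3.38, 2.79 and 0.971 FPKM in HS_SCR, against 11.4, 9.11 and 6.35 FPKM in 0.4% salt. HS_DT replicate 2 held the highest HS_DT value of 29 of the 39 genes, against 25.2% of loci. HS_SCR replicate 3 held the highest HS_SCR value of 19 of them, against 40.0% of loci, and HS_SCR replicate 2 that of 14, against 25.3%.

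Of 19 tested kinases and factors that act above these genes (of 21 listed), 1 rose and 1 fell, a share near that of all tested loci (13.1% in either direction), with a median change of -0.02. Rps6ka1, a kinase of the ERK pathway, rose by 0.38 ± 0.08, and Creb1, which binds cyclic AMP response elements such as those in the Ier2 and Jund windows, fell by 0.53 (SE 0.11), to 7.67 ± 0.757 FPKM in HS_SCR, against 11.5 ± 0.965 FPKM in 0.4% salt (SD, n = 3 each). Among 9 tested partners and relatives of Myc (of 11 listed), Max rose by 0.36 ± 0.08 (59.5 ± 3.803 FPKM in HS_SCR, against 46.2 ± 1.57 FPKM in 0.4% salt), none fell, and the median change was 0.00.

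Known targets of Myc were called in both directions. Of 21 tested (of 22 listed), 4 rose and 1 fell, with a median of 0.27: Ldha (lactate dehydrogenase) rose by 0.64 ± 0.14, Rrp12 (ribosome maturation) by 0.54 ± 0.10 and Npm1 (nucleophosmin) by 0.51 ± 0.08, while the cyclin gene Ccnd2 fell by 0.74 (SE 0.13). Of 9 tested AP-1 targets (of 12 listed), 3 rose and 1 fell, with a median of 0.49. Timp1, a metalloproteinase inhibitor, rose by 0.98 ± 0.22, Spp1 by 0.96 ± 0.20 and Plaur, the urokinase receptor, by 0.93 ± 0.11, while cyclin D1, Ccnd1, fell by 0.79 (SE 0.20). Shares of called genes in all 6 lists can be set against the 8.2% of tested loci that rose and 4.88% that fell. No gene of the 6 lists was called in HS_DT minus HS_SCR or in HS_DT minus 0.4% salt.

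**Figure D5:**
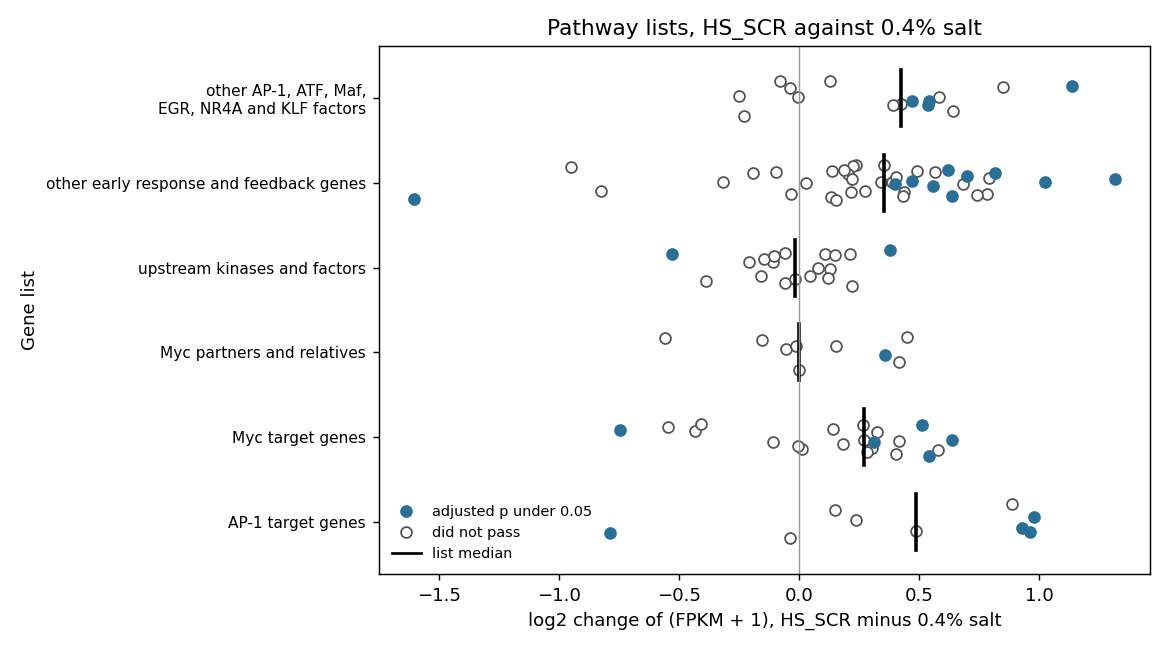
Log2 change of (FPKM + 1) in HS_SCR minus 0.4% salt (horizontal axis) for each tested gene of the 6 lists (rows); filled points passed an adjusted p of 0.05 and bars mark list medians. The medians of upstream kinases and of Myc partners are at -0.02 and 0.00, and the other 4 run from 0.27 to 0.49.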

How the data were processed

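The study sequenced outer medulla RNA of 9 rats, extracted in Trizol and prepared on an Illumina NeoPrep, per the labels. The deposited values are FPKM, which the authors computed with Cufflinks 2.2.1 after Trim Galore 0.2.5 on build rn5, per the submitters' processing notes; no source used here names the aligner or annotation. A further column repeating a library was not used (1 column). Columns were matched by the rat number in the sample titles. FPKM were analysed as log2(FPKM + 1), a scale that understates changes of low genes, at loci averaging 1 FPKM or more. Tests were limma 3.58.1 (R 4.3.3, trended moderation, 6 residual degrees of freedom), two-sided, in a single fit of the 3 groups, adjusted by Benjamini-Hochberg over all 14338 tested loci. Without counts, no counting interval is given. Rats are separate animals. Changes named from lists are up to 4 called genes with the largest absolute change; the 2 most alike loci are named for each member. The members and lists were chosen with earlier results of these data known. The fit was tested on simulated data. Alternatives were pseudocount, filter, scaling, moderation, weights, 2-group fits, replicate block, rat number series, proximal tubule score (the mean log2 value of its markers) and leaving out each library.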

Additional observations from a re-analysis of the deposited data

How the results depend on the processing

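Myc, Ier3 and Jund stayed higher in HS_SCR than in 0.4% salt under every alternative run. Counts of the 10 genes called in HS_SCR minus 0.4% salt were 3 in the main analysis, 0 once the proximal tubule score entered as a covariate, and 2 to 4 when single libraries were left out. In HS_DT minus HS_SCR the count was 0, with 1 (Ier3) under library weights and 0 to 2 on leaving out libraries. Library weights called 10.4% of tested loci in HS_DT minus HS_SCR, 12.6% in HS_DT minus 0.4% salt and 27.4% in the F test. In HS_DT minus 0.4% salt the count of the 10 genes was 0, with 4 (Atf3, Jun, Jund and Myc) under library weights. In the F test it was 3, with 5 under library weights, 0 with the proximal tubule score and 0 to 3 on leaving out libraries; Jund lost its call there under 4 more settings, equal FPKM sums, the rat number series, quantile normalization and no filter. With the replicate number as a replicate block the counts were 3, 0 and 0, as without it, and the adjusted p in HS_SCR minus 0.4% salt was 0.0125 for Myc, 0.0132 for Ier3 and 0.0179 for Jund. Residuals of libraries sharing a number correlated from -0.08 to 0.26, above 0.1 in 5 of 9 pairs. Those of libraries with different numbers correlated from -0.31 to 0.24. The numbers were not taken as pairs because the labels do not say that they pair rats. With a term for the rat number series, Myc (1.14), Ier3 (0.90) and Jund (0.53) were called.

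Signs turned for uncalled changes only. In HS_SCR minus 0.4% salt, Fos was 0.21 under library weights and 0.24 with the proximal tubule score, Egr1 was 0.30 with that score, and Fosb was -0.26 with the rat number series. In HS_DT minus HS_SCR, Junb was 0.070 and Ier2 0.027 under equal FPKM sums without mitochondrial transcripts, a scaling that put the median of all loci at 0.17, against 0.00. In HS_DT minus 0.4% salt, Fos was -0.38 and Ier2 -0.16 with the rat number series. Leaving out libraries gave -1.37 to 0.18 for Fos and -1.05 to 0.23 for Egr1 in HS_SCR minus 0.4% salt. In HS_DT minus HS_SCR it gave -0.50 to 0.96 for Fosb, -0.041 to 0.46 for Jun, -0.41 to 0.20 for Junb, -0.12 to 1.15 for Egr1, -0.018 to 0.81 for Atf3 and -0.33 to 0.12 for Ier2. In HS_DT minus 0.4% salt it gave -0.30 to 0.89 for Fos, -0.059 to 1.40 for Fosb and -0.29 to 0.32 for Egr1.

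Over all loci, calls in HS_SCR minus 0.4% salt were 1874, but 4019 under library weights, 3304 under equal sums, 466 in a 2-group fit, 0 with the proximal tubule score and 347 to 5188 on leaving out libraries, the highest without HS_SCR replicate 3. HS_DT minus HS_SCR had 1 call, but 3 with no filter, 154 with a minimum of 5 FPKM, 87 under equal sums (85 higher and 2 lower), 1496 under library weights, 422 with the rat number series, 0 under quantile normalization, the replicate block and the score, and 0 to 2300 on leaving out libraries. HS_DT minus 0.4% salt had 0 calls, but 1805 under library weights, 2 with a minimum of 5 FPKM, 1 in a 2-group fit and 0 to 6 on leaving out libraries. The F test called 804 loci, but 3934 under library weights, 1362 under equal sums, 535 with no filter, 515 under quantile normalization, 0 with the score and 0 to 3860 on leaving out libraries. The cause of these shifts was not tested. Depth is unknown, which limits what low genes such as Fosb can show.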
